A study of Mus musculus with 12 samples.

Results

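The transcripts described here are 32 genes known as markers of macrophages and monocytes, chosen as a named list and found by their symbols in the deposited count tables. All 32 were found among the 39017 genes of the tables. They were measured by RNA sequencing in 12 libraries of 4T1, a mammary carcinoma line of the BALB/c mouse strain, in which it forms tumors. The libraries formed 4 groups of 3: tumors labelled POGZ KO (KO-8454, KO-8455 and KO-8459), tumors titled VC with the genotype label POGZ WT (VC-8447, VC-8448 and VC-8451), cultures labelled POGZ KO, and cultures titled VC with the same POGZ WT label. For the tumors, 4T1 cells had been placed in a mammary fat pad of 8-week-old BALB/c animals, and the tumors were taken after 28 days and flash frozen. The cultures had grown in DMEM with 10% fetal bovine serum to 75% confluency. The sources used here do not say how POGZ was targeted, whether the cells were 1 clone, or whether the culture libraries came from separate cultures, so the p-values below measure the spread between these libraries, which for the cultures may be technical. POGZ is a zinc finger chromatin protein that binds HP1 proteins.

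Macrophages arise from circulating monocytes or from precursors seeded in the embryo, and they depend on CSF1 signaling through its receptor. Their identity is set by the transcription factor PU.1, the product of Spi1, and they detect and engulf antibody-coated, complement-coated or dying material through Fc receptors, integrins and scavenger receptors, many of which signal through adaptor proteins that carry an immunoreceptor tyrosine-based activation motif (ITAM). In mammary tumors they are among the abundant host leukocytes, and genes such as Arg1, Mrc1 and Cd163 are often used to describe their states. In RNA from whole tumors, fewer cells of a type and less RNA per cell cannot be told apart, and this holds for every tumor value given here.

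The libraries differed in depth. The KO-labelled tumors held 12128993 to 13043831 counts and the VC-labelled tumors 4712001 to 8338828, while the cultures held 14724518 to 21863223. Levels are given as CPM, a gene's counts scaled to the same library total (1000000), and intervals and floors cover counting error only. Pogz itself did not follow the KO label at the RNA level: it had 131, 106 and 84.5 CPM in the KO-labelled tumors, against 86.0, 103 and 109 CPM in the VC-labelled tumors, and 68.4, 67.8 and 68.6 CPM in the KO-labelled cultures, against 50.9, 52.0 and 48.1 CPM in the VC-labelled cultures. The gene was higher in the KO-labelled cultures (log2 fold change 0.45 ± 0.04 SE, adjusted p = 3.66e-06 by edgeR's quasi-likelihood test with Benjamini-Hochberg adjustment). The RNA level therefore does not check the label, and the groups are named by their labels throughout. Tumor KO-8459 stood apart from the other tumors by its B and plasma cell genes: the summed level of 8 such genes was 1249 CPM there, against 6.51 and 29.3 CPM in the other KO-labelled tumors and 4.38 to 12.7 CPM in the VC-labelled tumors, in which 1 of the 8, Mzb1, had no count. Where leaving out KO-8459 moved a member's fold change between the labels by over 1.5 times or turned its sign, as it did for 24 of the 31 members tested, the value without it is given too.

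Promoter sequence from RefSeq (build GRCm38.p6, 250 bases before to 50 after the annotated start) was matched for 25 of the 32 members. These windows are shown because Spi1 is itself a member and because the lysozyme genes resemble each other so closely. The core letters GAGGAA of the PU.1 recognition sequence, searched on both strands, stood in the windows of 15 of the 25 members (60%), against 31.3% of 27025 mouse genes with such windows. The longer form GAGGAAGT, which contains the core, stood in those of 2 members, C1qc and Pf4 (8%), against 3.69% of all genes. The composite element in which an ETS core, GGAA, is followed after any 2 bases by an interferon regulatory factor core, GAAA, stood in the windows of Cd68, Cybb, Fcgr2b and Folr2 (16%), against 3.16% of all genes. A further 3 motifs were searched in the same way. The letters TGANTCA of AP-1 sites stood in the windows of 6 members (24%, against 8.97% of all genes), and TTGC followed after any 2 bases by AA, a form of C/EBP sites, in those of 5 (20%, against 12.2%). The E-box CACGTG stood in that of Lgmn alone (4%, against 8.09%). A match is a description of letters and not a site of binding. In C1qc (chr4:136892865-136893164, minus strand) the match to GAGGAAGT began 195 bases before the start, in Pf4 (chr5:90772185-90772484, plus strand) 10 bases before it, and in Fcgr3 (chr1:171059354-171059653, minus strand) the core began 6 bases before it. All 3 matches lie on the strand opposite to the gene, and capitals mark them in reverse complement.
C1qc: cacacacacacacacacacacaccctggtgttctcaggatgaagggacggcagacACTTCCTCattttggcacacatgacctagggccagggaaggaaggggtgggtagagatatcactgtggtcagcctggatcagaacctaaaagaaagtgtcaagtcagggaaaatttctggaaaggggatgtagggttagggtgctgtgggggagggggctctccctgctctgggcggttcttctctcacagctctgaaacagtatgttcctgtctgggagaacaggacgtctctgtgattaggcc
Pf4: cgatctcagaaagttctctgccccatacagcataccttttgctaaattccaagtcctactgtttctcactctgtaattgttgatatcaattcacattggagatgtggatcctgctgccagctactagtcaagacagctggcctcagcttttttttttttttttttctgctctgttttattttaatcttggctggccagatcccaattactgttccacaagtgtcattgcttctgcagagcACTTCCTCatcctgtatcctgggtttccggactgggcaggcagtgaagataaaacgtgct
Fcgr3: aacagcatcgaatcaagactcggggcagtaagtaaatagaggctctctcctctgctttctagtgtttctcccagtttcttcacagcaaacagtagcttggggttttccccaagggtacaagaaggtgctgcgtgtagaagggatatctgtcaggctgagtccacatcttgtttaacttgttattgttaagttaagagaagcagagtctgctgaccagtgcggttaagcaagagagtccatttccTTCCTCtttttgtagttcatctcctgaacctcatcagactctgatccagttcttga

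Lyz2 and Lyz1 lie beside each other on chromosome 10. The last 150 bases of their windows (chr10:117282223-117282372 for Lyz2 and chr10:117292819-117292968 for Lyz1, both minus strand), which run from 100 bases before the start to 50 after it, were identical at 141 positions (94%) without gaps. The 9 positions that differ are in capitals.
Lyz2: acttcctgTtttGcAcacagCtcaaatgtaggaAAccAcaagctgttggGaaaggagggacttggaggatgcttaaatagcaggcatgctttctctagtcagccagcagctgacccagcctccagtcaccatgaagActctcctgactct
Lyz1: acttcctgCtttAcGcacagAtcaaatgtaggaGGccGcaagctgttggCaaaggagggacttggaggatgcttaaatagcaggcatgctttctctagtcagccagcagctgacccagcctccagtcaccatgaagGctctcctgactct
Within the annotated exons of GENCODE M21, 16.1% of the 50-base windows of Lyz1 and 15.4% of those of Lyz2 were shared between these 2 genes, so reads from such windows cannot be told apart. The same held for 6.95% of the windows of Fcgr2b and 9.58% of those of Fcgr3. Itgam shared 66.3% of its windows with the overlapping gene Gm49368 on the same strand. Ms4a6c shared 51.4% with BE692007 and Folr2 52.6% with Gm10602, both on the opposite strand, and the sources used here do not say whether reads were counted by strand. Levels of these genes are less certain than those of the others.

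The comparison of tumors with cultures shows which of these genes the cancer cells alone carried. Most members were at or near 0 in the cultures. Across the 6 cultures, 6 members (Tyrobp, Trem2, Marco, Lyz1, Laptm5 and Ms4a7) had no count and 12 had 1 to 3 counts in all (C1qa, C1qb, C1qc, Fcgr1, Fcgr2b, Fcgr3, Clec4n, Cd163, Msr1, Lyz2, Cybb and Ms4a6c). A further 5 (Fcer1g, Mrc1, Spi1, Itgam and Pf4) had 4 to 20 counts, and 9 had over 20 (Cd14, Cd68, Lgmn, Gpnmb, Aif1, Cx3cr1, Arg1, Apoe and Folr2). Summed over all 32, the members held 3560, 3181 and 5685 CPM in KO-8454, KO-8455 and KO-8459 and 4633, 2624 and 3413 CPM in VC-8447, VC-8448 and VC-8451. In the cultures the sum was 191, 199 and 195 CPM under the KO label and 169, 154 and 151 CPM under the VC label. The lysosomal protease gene Lgmn alone made up 68.9% to 80.0% of the culture sums, against 4.96% to 7.48% of the tumor sums.

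**Figure D1:**
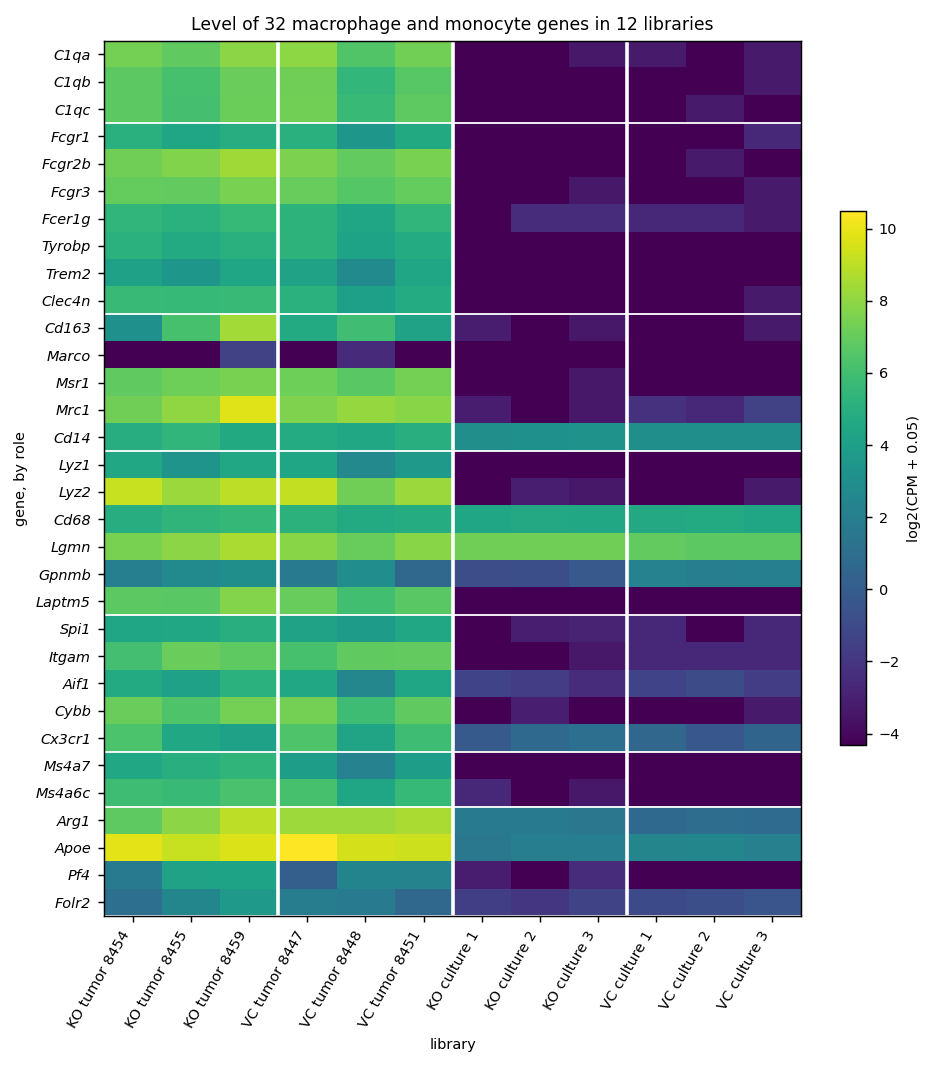
Level of each member (rows, ordered by role, with white lines between roles) in each of the 12 libraries (columns), as log2 of CPM plus 0.05. The 6 tumors stand on the left and the 6 cultures on the right, where only Cd14, Cd68, Lgmn, Gpnmb, Aif1, Cx3cr1, Arg1, Apoe and Folr2 had over 20 counts in all.

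For members with no count in a group of cultures, the fold is a lower bound against a floor of 3 counts over the group. Laptm5, a lysosomal membrane protein of leukocytes, was at least 2543-fold higher in KO-labelled tumors than in KO-labelled cultures and at least 1704-fold higher in VC-labelled tumors than in VC-labelled cultures. Tyrobp, an ITAM adaptor also called DAP12, was at least 569.8-fold and at least 486-fold higher under the KO and the VC label, and Trem2, a lipid receptor that signals through Tyrobp, at least 299.8-fold and at least 273-fold higher. C1qa had 1 count in the KO-labelled cultures, so its ratio of 9313 has an exact 95% counting interval of 1671 to 367835. With 2 counts in the VC-labelled cultures, the C1qa ratio there was 4158 (1151 to 34336). Marco, a scavenger receptor of some tissue macrophages, was nearly absent everywhere: it had 4 counts in tumor KO-8459, 1 count in tumor VC-8448 and none elsewhere.

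The members that the cultures expressed differed less or in other ways. Cd68, a lysosomal glycoprotein widely used to stain macrophages, had 30.2, 40.5 and 45.7 CPM in the KO-labelled tumors, against 21.7, 24.3 and 23.4 CPM in the KO-labelled cultures. In the VC-labelled tumors it had 35.7, 26.3 and 29.1 CPM, against 24.0, 25.9 and 20.7 CPM in the VC-labelled cultures. All tumors lay above all cultures for Cd68, but by little: the log2 fold change was 0.78 ± 0.16 SE under the KO label (adjusted p = 1.08e-03 by edgeR's quasi-likelihood test with Benjamini-Hochberg adjustment) and 0.39 ± 0.16 under the VC label, which missed the threshold (adjusted p = 0.0510). It passed with upper-quartile scaling (adjusted p = 0.0248), without KO-8454 (0.0216) and without VC-8448 (0.0292). Lgmn was higher in tumors by 0.85 ± 0.26 under the KO label and by 0.85 ± 0.27 under the VC label on the log2 scale, with adjusted p of 0.0145 and 0.0148 by the edgeR quasi-likelihood test with Benjamini-Hochberg adjustment. These Lgmn calls were lost without KO-8459 under the KO label (adjusted p = 0.121) and without VC culture 2, VC-8447 or VC-8451 under the VC label (0.0511 to 0.0662).

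Cd14, the co-receptor for lipopolysaccharide, had 25.4 to 42.6 CPM in the KO-labelled tumors, against 8.05 to 9.56 CPM in the KO-labelled cultures, and 22.1 to 31.8 CPM in the VC-labelled tumors, against 8.07 to 8.37 CPM in the VC-labelled cultures. Arg1, the arginase that breaks arginine down to ornithine, was higher in tumors by 6.53 ± 0.51 on the log2 scale under the KO label and by 7.63 ± 0.54 under the VC label. Apoe, the lipid carrier, was higher by 7.78 ± 0.36 under the KO label and by 7.55 ± 0.35 under the VC label. In the fit over all 12 libraries, 31 of the 31 members tested were called higher in the KO-labelled tumors than in their cultures (all genes, 37.7% called higher) and 29 of 31 in the VC-labelled tumors (all genes, 37.9%), the exceptions being Cd68 and Gpnmb. Most members entered this test through their tumor counts, so nothing is read from these counts. Tumors and cultures also differ in host tissue and in freezing, which cannot be told apart here.

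**Figure D2:**
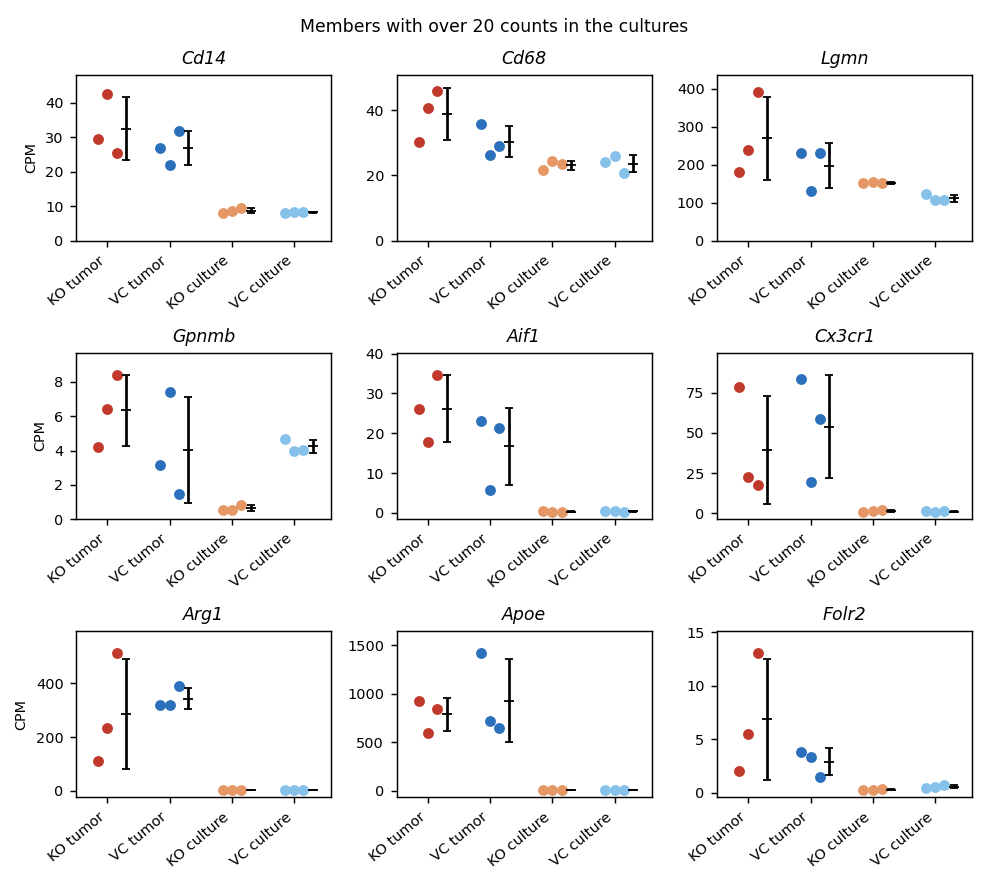
CPM of the 9 members with over 20 counts in the cultures, with 1 point per library for the 4 groups and the mean with its SD (n = 3) as a black bar. Cd68 and Lgmn lay close in tumors and cultures, Arg1 and Apoe were near 0 in cultures, and Gpnmb in the VC-labelled cultures lay at the level of the tumors.

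Per kilobase of annotated exon, so that genes can be compared with each other, Apoe and Lyz2 were the most abundant members in tumors of either label. Apoe had 368 ± 79.7 CPM per kilobase (mean ± SD, n = 3) in KO-labelled tumors and 436 ± 200 in VC-labelled tumors. Lyz2, the lysozyme of macrophages, had 359 ± 119 in KO-labelled tumors and 260 ± 158 in VC-labelled tumors. C1qa and Arg1 followed under either label, at 168 ± 56.9 and 128 ± 92.6 in KO-labelled tumors and at 160 ± 78.0 and 154 ± 17.8 in VC-labelled tumors. In KO-labelled tumors Lyz2 lay above C1qa by more than their SDs, while Apoe and Lyz2, and likewise C1qa and Arg1, overlapped within theirs. In VC-labelled tumors the SDs of each of these neighbors overlapped. At the low end stood Gpnmb, at 0.973 ± 0.3201 in KO-labelled tumors and 0.618 ± 0.472 in VC-labelled tumors, and Marco. In the cultures the order was different, with Lgmn at 65.9 ± 0.955 under the KO label and 48.4 ± 3.85 under the VC label, followed by Cd68 at 18.4 ± 1.07 under the KO label and 18.7 ± 2.08 under the VC label, and then Cd14.

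The comparison of KO-labelled with VC-labelled tumors asks whether macrophage and monocyte transcripts differed with the label of the cancer cells. No member passed the test. Of 31 members tested (Marco had too few counts), 0 had an adjusted p under 0.05 by edgeR's quasi-likelihood test with Benjamini-Hochberg adjustment, where 0% of 17153 genes were called, and adjusted p of the members ran from 0.861 to 0.996. At an unadjusted p under 0.05 there were 3 members, Clec4n, Ms4a7 and Pf4, beside 5.57% of all genes. DESeq2 called 0 members and 66 genes in all, and limma-voom called 0 of either. The fold changes leaned to higher values in the KO-labelled tumors: 27 of 31 members had a log2 fold change above 0, beside 52.7% of all genes, and the member median was 0.36, beside 0.02 over all genes tested. Fibroblast (10 of 10 above 0, median 0.59) and endothelial genes (9 of 10, 0.43) also leaned this way. So did T and NK cell (13 of 16, 0.50) and adipocyte genes (6 of 6, 1.37), general leukocyte genes (8 of 10, 0.61) and dendritic cell genes (6 of 8, 0.54). B and plasma cell (4 of 4, 4.09) and mast cell genes (4 of 4, 1.84) leaned likewise. Neutrophil (4 of 13, -0.22), skeletal muscle (2 of 5, -0.24), erythroid (0 of 5, -0.93) and epithelial genes (1 of 6, -0.13) did not, nor did the 1 keratinocyte gene tested. The lean was therefore not particular to the members. Several of these lists also rested on single tumors. Without VC-8448, erythroid genes stood at 5 of 5 above 0 (median 0.89) and neutrophil genes at 10 of 13 (0.29). Without KO-8459, T and NK cell genes stood at 4 of 15 above 0 (-0.13), while fibroblast genes stood at 10 of 10 (0.62). The member lean rested largely on single tumors. Without tumor KO-8459 the member median was 0.13 with 20 members above 0, and without tumor VC-8448, in which 22 of the 31 members with counts in every tumor had their lowest level, it was also 0.13 with 20 above 0. Leaving out VC-8448 moved the fold change of 23 of the 31 members by over 1.5 times or turned its sign, and leaving out any 1 of the other 4 tumors besides KO-8459 did so for 10 to 13.

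**Figure D3:**
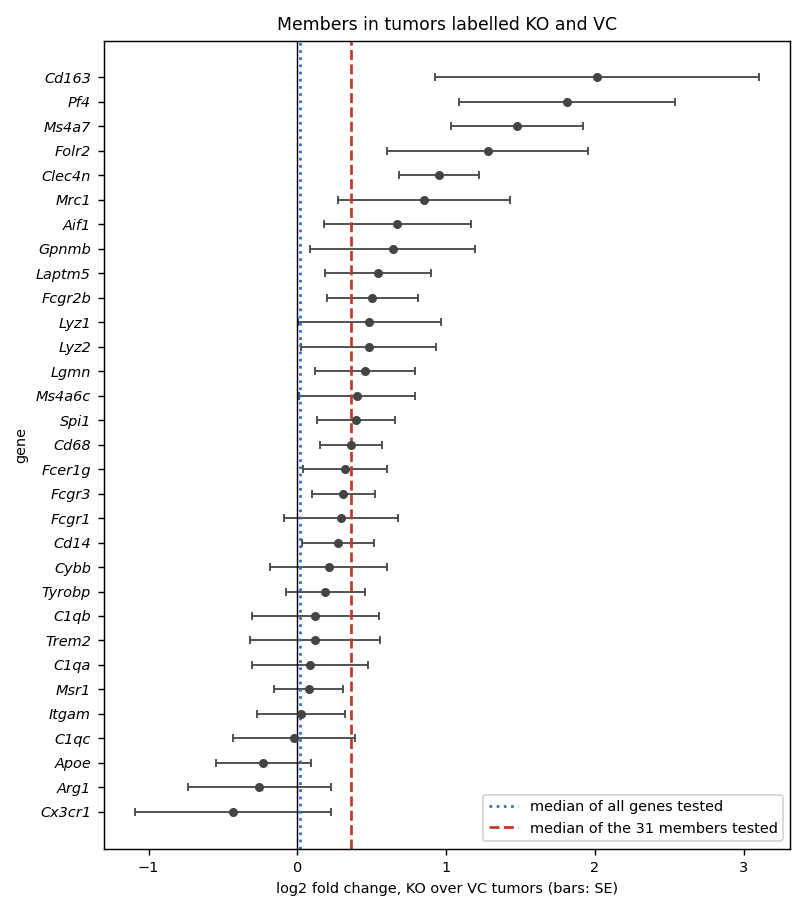
Log2 fold change of each of the 31 members tested, KO-labelled over VC-labelled tumors, with SE as bars and genes ordered by size. The dashed red line marks the member median (0.36) and the dotted blue line the median of all 17153 genes (0.02), and none of the genes passed the adjusted threshold.

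Among the Fc receptors, ITAM adaptors and receptors coupled to them, Clec4n had even values in the KO-labelled but not in the VC-labelled tumors. This gene encodes Dectin-2, a C-type lectin that binds fungal mannans and signals through the Fc receptor gamma chain (chr6:123229843-123247021, plus strand, mm10). Clec4n had 51.7, 48.2 and 51.0 CPM in KO-8454, KO-8455 and KO-8459, against 35.4, 16.1 and 27.4 CPM in VC-8447, VC-8448 and VC-8451. Every KO-labelled tumor lay above every VC-labelled tumor. The KO-labelled values were nearly the same, while the VC-labelled values ran from 16.1 to 35.4 CPM. The log2 fold change was 0.95 ± 0.27 SE (adjusted p = 0.861 by edgeR's quasi-likelihood test with Benjamini-Hochberg adjustment), and it stayed between 0.69 and 1.19 when any 1 tumor was left out. Of 31 members tested 2, Clec4n and Ms4a7, had all KO-labelled above all VC-labelled tumors, beside 4.96% of all genes. No member had the reverse, beside 5.43%. The share of members was near that of all genes, so nothing is read from this count.

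The classical Fc gamma receptor genes overlapped between the labels. Fcgr2b, the inhibitory receptor, had 153, 205 and 331 CPM in the KO-labelled tumors and 188, 121 and 180 CPM in the VC-labelled tumors, a log2 fold change of 0.50 ± 0.31 that became 0.13 without KO-8459. Fcgr3, an activating receptor, had 125, 121 and 183 CPM in KO-labelled tumors and 129, 95.6 and 124 CPM in VC-labelled tumors (0.31 ± 0.21, and 0.080 without KO-8459). Fcgr1, the high-affinity receptor, had 21 to 34.2 CPM in KO-labelled and 11.2 to 33.3 CPM in VC-labelled tumors. Fcer1g, the gamma chain through which the activating Fc receptors signal, had 35.3 to 48.1 CPM in KO-labelled and 20.9 to 43.2 CPM in VC-labelled tumors (0.32, 0.20 without KO-8459, 0.058 without VC-8448 and 0.55 without VC-8451). Tyrobp had 26.4 to 35.3 CPM in KO-labelled and 19.2 to 38.0 CPM in VC-labelled tumors. Trem2 had 11.4 to 21.6 CPM in KO-labelled and 6.84 to 21.9 CPM in VC-labelled tumors, with a log2 fold change of 0.12 ± 0.44 that became -0.11 without KO-8459.

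The MS4A genes encode membrane proteins with 4 passes through the membrane that associate with immune receptors. Ms4a7 (chr19:11321039-11336146, minus strand, mm10) had 23.0, 32.5 and 40.7 CPM in the KO-labelled tumors, against 14.9, 4.68 and 15.4 CPM in the VC-labelled tumors, and no count in any culture. The groups did not overlap. The log2 fold change was 1.48 ± 0.44, with the same adjusted p of 0.861, and ran from 1.08 to 1.77 when any 1 tumor was left out. Its neighbor in the same gene cluster, Ms4a6c, had 58.8, 52.1 and 74.6 CPM in the KO-labelled tumors and 72.8, 21.3 and 48.5 CPM in the VC-labelled tumors, so the groups overlapped (0.40 ± 0.39, 0.23 without KO-8459, 0.041 without VC-8448 and 0.80 without VC-8447).

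The scavenger and pattern recognition receptors varied more among tumors of 1 label than between labels. Cd163, the receptor for hemoglobin bound to haptoglobin, had 8.66, 71.3 and 347 CPM in KO-8454, KO-8455 and KO-8459, against 26.1, 61.5 and 18.6 CPM in VC-8447, VC-8448 and VC-8451. This 40.1-fold range between the lowest and the highest tumor was the widest of the 31 members with counts in every tumor. The lowest and the highest value were both in KO-labelled tumors, and the log2 fold change of 2.02 ± 1.09 became 0.15 without tumor KO-8459. Mrc1, the mannose receptor CD206, had 152, 263 and 863 CPM in the KO-labelled tumors and 198, 284 and 231 CPM in the VC-labelled tumors. Its log2 fold change of 0.85 ± 0.58 became -0.21 without KO-8459. Msr1, the scavenger receptor for modified lipoproteins, was the most even member, with 117, 151 and 179 CPM in the KO-labelled tumors and 150, 105 and 169 CPM in the VC-labelled tumors (0.08 ± 0.23, and -0.091 without KO-8459). Cd14 had 29.6, 42.6 and 25.4 CPM in KO-labelled tumors and 27.0, 22.1 and 31.8 CPM in VC-labelled tumors (0.27 ± 0.24, and 0.41 without KO-8459).

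**Figure D4:**
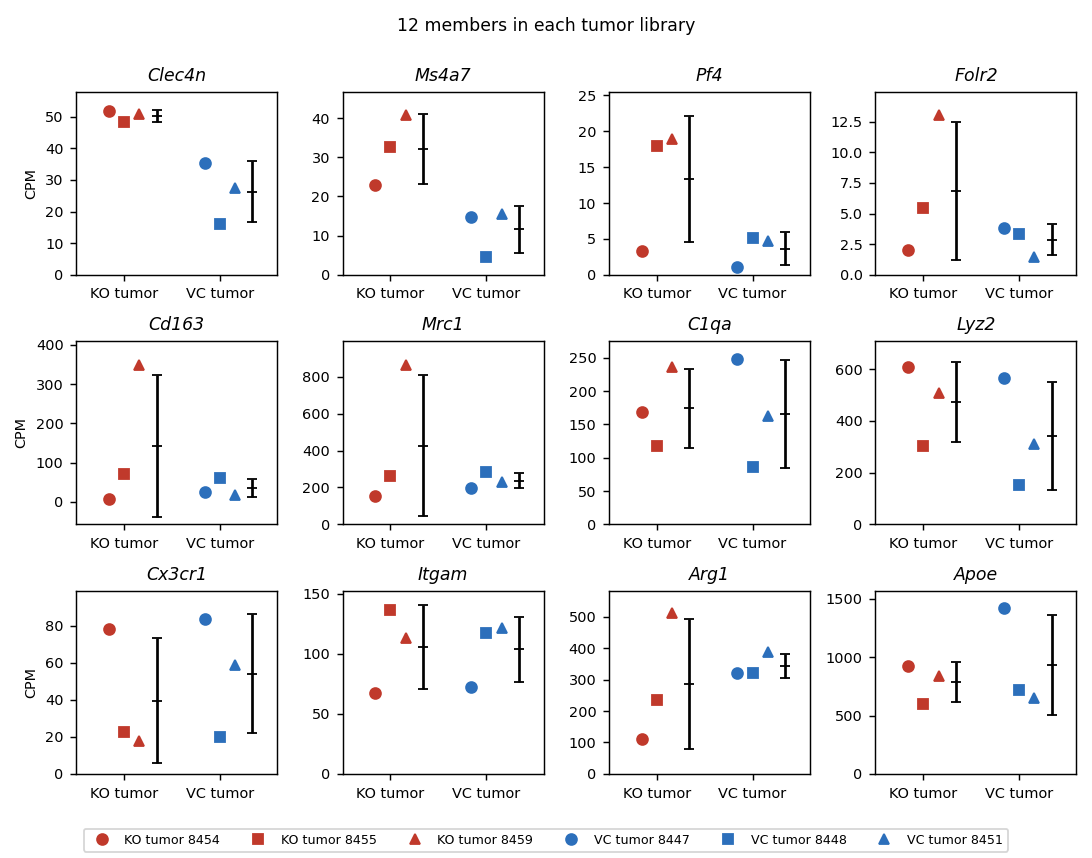
CPM of 12 members in each of the 6 tumors, with 1 marker shape per tumor and the mean with its SD (n = 3) as a black bar. Clec4n and Ms4a7 do not overlap between the labels, with KO-labelled tumors higher, as was the case for 4.96% of all genes. The high values of Cd163 and Mrc1 come from tumor KO-8459.

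The genes of the complement C1q chains, C1qa, C1qb and C1qc, lie side by side on chromosome 4. Macrophages secrete their products joined as C1q, which starts the classical pathway. C1qa had 169, 118 and 236 CPM in the KO-labelled tumors, against 249, 86.6 and 163 CPM in the VC-labelled tumors. C1qb had 108, 71.5 and 137 CPM in KO-labelled and 152, 43.8 and 99.3 CPM in VC-labelled tumors, and C1qc 108, 70.0 and 141 CPM in KO-labelled and 163, 52.3 and 112 CPM in VC-labelled tumors. For all 3 chains the highest and the lowest value were both in VC-labelled tumors, VC-8447 and VC-8448. The log2 fold changes were 0.09 ± 0.39, 0.12 ± 0.43 and -0.03 ± 0.41, and without KO-8459 they were -0.21, -0.12 and -0.29.

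Lyz2 had 607, 301 and 509 CPM in the KO-labelled tumors and 564, 153 and 310 CPM in the VC-labelled tumors, and Lyz1 22.9, 10.2 and 22.3 CPM in KO-labelled and 21.6, 6.24 and 12.6 CPM in VC-labelled tumors. Both overlapped between labels, with log2 fold changes of 0.48 ± 0.45 for Lyz2 and 0.48 ± 0.48 for Lyz1, the second of which became 0.32 without KO-8459. Without VC-8448 Lyz2 was at 0.13 and Lyz1 at 0.13, and without VC-8447 they were at 1.01 and 0.95. Laptm5 had 108, 104 and 216 CPM in KO-labelled and 129, 64.0 and 103 CPM in VC-labelled tumors (0.54 ± 0.35, and 0.10 without KO-8459). Lgmn had 180, 238 and 391 CPM in KO-labelled and 232, 130 and 231 CPM in VC-labelled tumors (0.45 ± 0.33, and 0.071 without KO-8459). Since the cultures held Lgmn at 106 to 156 CPM, cancer cells and host cells cannot be told apart as the source of its tumor counts, and the same applies to Cd68, whose log2 fold change was 0.36 with all tumors and 0.22 without KO-8459. Gpnmb, a transmembrane glycoprotein of lysosomes and of foamy macrophages, had 4.20, 6.44 and 8.37 CPM in the KO-labelled tumors and 3.18, 7.44 and 1.46 CPM in the VC-labelled tumors (0.64 ± 0.55, 0.37 without KO-8459, 1.49 without VC-8448 and 0.24 without VC-8451). The Gpnmb mean was 4.24 CPM in the VC-labelled cultures and 4.03 CPM in the VC-labelled tumors, so the source of its counts in VC-labelled tumors cannot be told apart either. Under the KO label the mean was 0.63 CPM in the cultures and 6.34 CPM in the tumors, and the source there was not tested.

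Spi1 had 21, 22.2 and 31 CPM in the KO-labelled tumors and 18.7, 14.3 and 23.7 CPM in the VC-labelled tumors, with overlapping groups and a log2 fold change of 0.40 ± 0.26 that became 0.19 without KO-8459. Cybb, the catalytic subunit of the phagocyte oxidase, had 138, 83.9 and 168 CPM in KO-labelled and 167, 58.6 and 115 CPM in VC-labelled tumors (0.21 ± 0.39, and -0.029 without KO-8459). Aif1, an actin-binding protein also known as Iba1, had 26.1, 17.9 and 34.7 CPM in KO-labelled and 23.1, 5.64 and 21.3 CPM in VC-labelled tumors (0.67 ± 0.50, and 0.41 without KO-8459). Itgam, the integrin chain CD11b, which neutrophils also carry, had 67.7, 137 and 113 CPM in KO-labelled and 72.6, 117 and 121 CPM in VC-labelled tumors (0.02 ± 0.30, and -0.041 without KO-8459). A list of 17 neutrophil genes summed to 204, 817 and 374 CPM in KO-labelled and 258, 685 and 515 CPM in VC-labelled tumors. Within each label its lowest tumor was also the lowest for Itgam. The highest tumor was the same under the KO label, KO-8455, but not under the VC label, with VC-8448 for the list and VC-8451 for Itgam. That list had S100a9 at 24.4 to 249 CPM in every tumor, while Ly6g was at 0 in KO-8459 and Elane in every other tumor, and its part in the Itgam values was not tested. Cx3cr1, the fractalkine receptor, had 78.3, 22.8 and 17.6 CPM in KO-labelled and 83.6, 19.8 and 58.6 CPM in VC-labelled tumors, with a fold change on the log2 scale of -0.43 ± 0.66 that became -0.082 without KO-8459. Other tumors moved this Cx3cr1 value too: it was -1.41 without KO-8454, -0.83 without VC-8448 and -0.0056 without VC-8447.

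Among the metabolic and secreted products, Arg1 had 110, 235 and 513 CPM in the KO-labelled tumors, against 320, 321 and 389 CPM in the VC-labelled tumors. The VC-labelled values were close together and lay inside the wide KO-labelled range (-0.25 ± 0.48, and -1.01 without KO-8459). Apoe had 924, 597 and 842 CPM in KO-labelled and 1423, 721 and 652 CPM in VC-labelled tumors (-0.23 ± 0.32). Pf4, a chemokine of platelets that some macrophages also express, had 3.30, 18 and 18.9 CPM in KO-labelled tumors and 1.06, 5.16 and 4.78 CPM in VC-labelled tumors. Tumors KO-8455 and KO-8459 lay above all VC-labelled tumors and KO-8454 did not, and the log2 fold change was 1.81 ± 0.72. Folr2, a folate receptor of tissue-resident macrophages, had 2.06, 5.44 and 13 CPM in KO-labelled and 3.82, 3.36 and 1.46 CPM in VC-labelled tumors (1.28 ± 0.67, and 0.39 without KO-8459).

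The highest levels of the members were spread over 5 tumors. Tumor KO-8459 held the highest level of 18 of the 31 members with counts in every tumor, VC-8447 of 6, KO-8454 of 4, KO-8455 of 2 and VC-8451 of 1. Set against the summed C1q counts of the same tumor, the chains kept nearly fixed proportions, with C1qa at 43.8, 45.4 and 46.0 per 100 C1q counts in the KO-labelled tumors and 44.1, 47.4 and 43.5 in the VC-labelled tumors. Cybb stayed close to C1q as well, at 35.9, 32.4 and 32.8 per 100 C1q counts in KO-labelled and 29.6, 32.1 and 30.9 in VC-labelled tumors. Mrc1 did not, at 39.5, 102 and 168 per 100 C1q counts in KO-labelled and 35.2, 155 and 61.7 in VC-labelled tumors. Cd163 ran from 2.25 in KO-8454 to 67.7 in KO-8459, and from 4.63 in VC-8447 to 33.7 in VC-8448. On this scale Clec4n had 13.4, 18.6 and 9.93 in the KO-labelled tumors, against 6.28, 8.80 and 7.32 in the VC-labelled tumors, and Ms4a7 5.97, 12.5 and 7.93 in KO-labelled, against 2.63, 2.56 and 4.12 in VC-labelled tumors. Of the 28 members tested other than the C1q chains, 6 (Clec4n, Ms4a7, Lyz1, Aif1, Cybb and Ms4a6c) had all KO-labelled above all VC-labelled tumors on this scale, beside 0.851% of 17150 genes, and 0 had the reverse, beside 0.834%. Aif1, for example, stood at 6.76, 6.89 and 6.76 in KO-labelled, against 4.10, 3.09 and 5.68 in VC-labelled tumors, whereas Cybb was separated only narrowly. These proportions are descriptions: all genes share the C1q counts of a tumor as denominator, and the scale and the example genes were chosen with values known. The C1q chains are themselves members, so dividing by their counts favors genes that vary with them over other genes. On the CPM scale 4.96% of all genes had all KO-labelled above all VC-labelled tumors. The share of 0.851% is therefore no fair reference for the 6 members, and nothing is read from that count.

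Other cell types differed between the same tumors. A list of 10 genes of leukocytes in general summed to 749, 1131 and 1857 CPM in the KO-labelled tumors and 973, 816 and 1032 CPM in the VC-labelled tumors, none of them at 0, and KO-8459 was the highest here too. A list of 16 T and NK cell genes summed to 82.3, 98.2 and 238 CPM in KO-labelled and 118, 85.5 and 97.8 CPM in VC-labelled tumors. Fibroblast genes summed to 3926, 7282 and 5060 CPM in KO-labelled and 4343, 2741 and 3518 CPM in VC-labelled tumors, and 6 epithelial genes to 1586, 1872 and 1611 CPM in KO-labelled and 2129, 2079 and 1739 CPM in VC-labelled tumors. Tumor VC-8448, lowest for most members, had the highest sum of 6 erythroid genes (342 CPM, against 32 to 88.6 CPM in the other 5). The part of these cell types, and of the B and plasma cell genes high in KO-8459, in the levels and fold changes of the members was not tested. That of the greater depth of the KO-labelled tumors was tested only by thinning all tumors to the smallest total, which left the member median at 0.34.

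**Figure D5:**
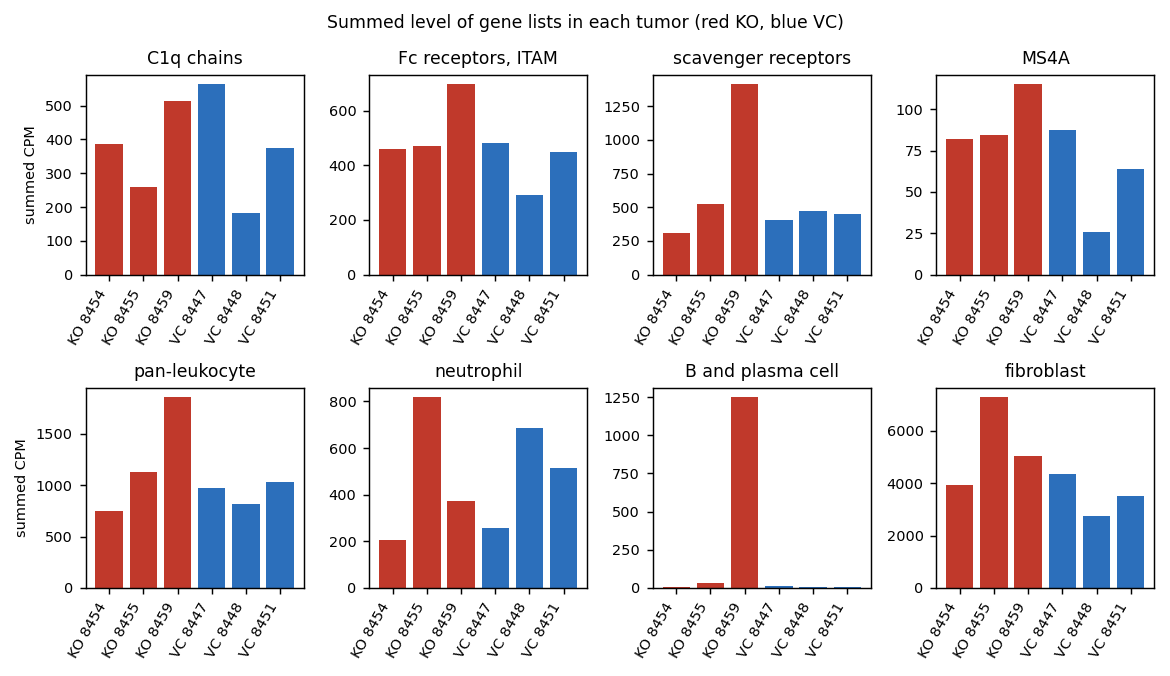
Summed CPM in each tumor (KO-labelled in red on the left, VC-labelled in blue) of 4 groups of members in the upper row and of 4 lists of other cell types in the lower row. The scavenger receptor sum reached 1415 CPM in KO-8459, which also held 1249 CPM of B and plasma cell genes, and the C1q sum was lowest in VC-8448.

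Further genes of macrophages and their signaling were compared between the same tumors, for which 52.7% of all genes were above 0 and 5.57% had an unadjusted p under 0.05. Of 51 other macrophage and monocyte genes, 49 were tested between KO-labelled and VC-labelled tumors and 0 passed, with 41 above 0, a median log2 fold change of 0.39 and 5 at an unadjusted p under 0.05 (Slc40a1, Chil3, Slco2b1, Stab1 and Plac8), of which Chil3 was below 0. Without KO-8459 the median was 0.17 with 33 of 48 above 0, and without VC-8448 it was 0.24 with 36 of 50 above 0. The list includes Csf1r, the receptor for CSF1, at 198, 134 and 269 CPM in KO-labelled and 181, 93.4 and 187 CPM in VC-labelled tumors, and Adgre1, which encodes F4/80, at 41.7, 35.5 and 54.1 CPM in KO-labelled and 48.0, 21.2 and 42.1 CPM in VC-labelled tumors. Adgre1 had no count in any culture, whereas Csf1r had 12.8 to 14.8 CPM in the KO-labelled and 21.8 to 26.9 CPM in the VC-labelled cultures. The genes of highest level, Fn1 (-0.44 ± 0.28) and Cd74 (-0.08 ± 0.37), leaned the other way. Among 18 genes of ITAM signaling and myeloid kinases 0 passed and 16 were above 0 (median 0.44), with Plcg2 at -0.24 ± 0.24 and Lyn at 0.08 ± 0.17. All 5 oxidase subunits were above 0 without passing (median 0.33), among them Cyba at 0.33 ± 0.23 and Ncf1 at 0.17 ± 0.24. Of 13 other complement genes 0 passed and 10 were above 0, with C3 at 0.15 ± 0.55 and Itgb2 at -0.06 ± 0.35. Of 8 macrophage growth factors and monocyte attractants 0 passed and 6 were above 0, with Csf1 at -0.16 ± 0.25 and Cx3cl1 at -0.11 ± 0.20. At an unadjusted p under 0.05 stood Syk (1.03 ± 0.41) and Pik3cg (1.11 ± 0.47) of the ITAM list, Cfp (1.23 ± 0.38) of the complement list, Ccl2 (1.36 ± 0.54) and Ccl8 (2.05 ± 0.87) of the attractants, and no oxidase subunit. Without KO-8459 the medians of the ITAM, oxidase, complement and attractant lists were 0.048, -0.033, 0.15 and 0.27, with 10 of 18, 2 of 5, 8 of 13 and 5 of 8 above 0. Without VC-8448 they were 0.20, 0.15, 0.26 and 0.56, with 12 of 18, 4 of 5, 8 of 13 and 6 of 8 above 0.

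In the cultures, which hold no host cells, 7 members had enough counts for a test of the KO against the VC label, and 4 passed, beside 47.9% of 15705 genes. Gpnmb, on chromosome 6 (49036546 to 49070929, plus strand, mm10), fell most: it had 0.521, 0.543 and 0.823 CPM in KO-labelled cultures 1, 2 and 3, against 4.69, 3.97 and 4.05 CPM in VC-labelled cultures 1, 2 and 3. The groups were far apart, with a log2 fold change of -2.69 ± 0.22 SE (adjusted p = 7.60e-07 by edgeR's quasi-likelihood test with Benjamini-Hochberg adjustment). Genes of chromosome 6 were lower on the whole in these cultures, with a median log2 fold change of -0.45 over 491 genes, and the part of this in the Gpnmb value was not tested. Apoe also fell, with 3.01, 3.94 and 3.98 CPM in KO-labelled and 5.19, 5.58 and 4.32 CPM in VC-labelled cultures. Its groups did not overlap but lay close (-0.45 ± 0.15, adjusted p = 0.0278 by the edgeR quasi-likelihood test with Benjamini-Hochberg adjustment), and the call was lost with DESeq2 (adjusted p = 0.0858), without KO culture 1 (0.128), without VC culture 1 (0.0683) and without VC culture 2 (0.113).

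Lgmn rose, with 153, 156 and 151 CPM in the KO-labelled cultures, against 123, 106 and 108 CPM in the VC-labelled cultures. The groups did not overlap and the KO-labelled values were nearly equal (0.45 ± 0.05, adjusted p = 1.57e-05 by the edgeR quasi-likelihood test with Benjamini-Hochberg adjustment). Arg1 rose as well at a low level, with 3.24, 3.46 and 2.84 CPM in KO-labelled and 1.64, 1.93 and 1.73 CPM in VC-labelled cultures (0.84 ± 0.17, adjusted p = 1.46e-03 in the same edgeR test). Cd68 (-0.02 ± 0.08), Cd14 (0.09 ± 0.10) and Cx3cr1 (0.45 ± 0.33) did not pass. When all 12 libraries shared 1 estimate of the spread, Lgmn, Arg1 and Apoe no longer passed (adjusted p of 0.378, 0.419 and 0.455) and Gpnmb did. Among all genes, 23% were called higher and 24.9% lower in the KO-labelled cultures.

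Genes that call for or act on macrophages differed between the cultures in either direction. So did genes at large, of which 23% of 15705 tested were called higher and 24.9% lower. Nothing is therefore read from the counts of these lists. Of 8 growth factors and attractants 5 were tested, and Csf1, the main macrophage growth factor, rose by 1.24 ± 0.04 on the log2 scale, with 289, 308 and 299.8 CPM in KO-labelled and 133, 127 and 122 CPM in VC-labelled cultures. Ccl2, a monocyte attractant, rose by 1.42 ± 0.08. Cx3cl1, the ligand of Cx3cr1, and Csf2 fell, at -0.84 ± 0.06 and -1.71 ± 0.14, as did 1 further gene of the list. Of 20 other macrophage and monocyte genes tested, 7 rose and 5 fell, among them Fn1 (1.29 ± 0.05), Thbs1 (1.19 ± 0.04), Nos2 (-2.11 ± 0.10) and Irf8 (-2.44 ± 0.14). Of 6 ITAM signaling genes tested 1 rose and 5 fell, including the kinase gene Lyn (-0.85 ± 0.04), the phosphatase gene Ptpn6 (-1.23 ± 0.09), Dok2 (-1.05 ± 0.19) and Lat2 (-0.77 ± 0.17). Of 7 complement genes tested, 2 rose, Itgb2 (0.69 ± 0.05) and C1s1 (1.02 ± 0.20), and 2 fell, C3 (-0.16 ± 0.04) and C2 (-0.74 ± 0.21). Of 2 oxidase subunits tested, Cyba rose (0.22 ± 0.06). Adjusted p of the genes named in this paragraph were at most 0.0121 by edgeR's quasi-likelihood test with Benjamini-Hochberg adjustment.

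The difference between the KO effect in tumors and in cultures was tested as an interaction over all 12 libraries. Gpnmb was the only member called, beside 2.05% of 18419 genes: its KO effect was 3.34 ± 0.66 higher in tumors on the log2 scale (adjusted p = 0.0242 by the edgeR quasi-likelihood test with Benjamini-Hochberg adjustment). The culture values behind this are those that were low under the KO label, while the tumor values of Gpnmb overlapped between labels, at 4.20 to 8.37 CPM under KO and 1.46 to 7.44 CPM under VC. In the same fit Gpnmb was higher in KO-labelled tumors than in KO-labelled cultures by 3.32 ± 0.49, and the log2 fold change of VC-labelled tumors over VC-labelled cultures was -0.02 ± 0.44. The interaction call was lost without any 1 of the 6 cultures or without VC-8447 (adjusted p of 0.0559 to 0.0920). For Folr2 the interaction was 2.20 ± 0.93 (adjusted p = 0.280 in the same edgeR test), which passed without KO-8454 (0.0432), and for Arg1 it was -1.10 ± 0.66 (0.460), which passed without KO-8459 (0.0390). Of the growth factors, Csf1 had an interaction of -1.40 ± 0.28 (adjusted p = 0.0240) and Csf2 of 1.95 ± 0.44 (0.0474) in that edgeR test. Of the other macrophage and signaling lists, the same edgeR test called Fn1 (-1.73 ± 0.29, adjusted p = 0.00974), Irf8 (2.38 ± 0.43, 0.0160), Cd33 (-2.31 ± 0.51, 0.0437) and Lyn (0.93 ± 0.17, 0.0144). Whether the calls of these list genes hold with libraries left out is not given.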

How the data were processed

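Per the labels' protocols, total RNA of 6 tumors and 6 cultures was stripped of rRNA and sequenced. Gene-level raw counts, not normalized, were deposited as 1 table for tumors and 1 for cultures. The submitters' processing notes name featureCounts 1.4.4, STAR 2.3.0e, Trimmomatic 0.32 and mm10; settings, annotation release and strand are not given in the sources used here. Unstated strand makes counts of overlapping genes uncertain, and the total count sets the precision of low levels.

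Counts were tested in R 4.3.3 with edgeR 4.0.16 (filterByExpr, TMM scaling, quasi-likelihood test, Benjamini-Hochberg adjustment over all genes tested, threshold 0.05). KO-labelled and VC-labelled tumors, and the cultures, were fitted apart. Each SE was derived from the F value, dividing a log2 fold change by its square root. Tumors against cultures and the interaction used all 12 libraries. DESeq2 1.42.0, limma 3.58.1 (voom), other scalings and filters, thinning, and left-out libraries were alternatives. The script was tested on simulated data. No 2 replicates held identical values or agreed within sampling noise. Culture numbers 1 to 3 did not pair the KO and VC libraries. Exon lengths came from GENCODE M21 (GRCm38), and promoter windows from RefSeq.

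All 32 members are described. Of the other lists of macrophage genes and their signaling, genes called between the labels in tumors and in cultures are counted. Up to 4 called genes of smallest p are named, or up to 2 of highest mean CPM where none was called. Calls of these lists between tumors and cultures are not given, and all of their interaction calls are named. Calls of the lists of other cell types in the cultures, against cultures and in the interaction are not given. Csf1r, Adgre1, S100a9, Ly6g, Elane, Mzb1 and, of the macrophage and signaling lists, the tumor genes at an unadjusted p under 0.05 were named besides, after their values were seen. Of 214 list genes 212 were matched, 5 by Ensembl ID under an older symbol. The members and lists were chosen with earlier results of these data known.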

Additional observations from a re-analysis of the deposited data

Results flagged for a closer look

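The effect of the KO label on Gpnmb differed between tumors and cultures by the interaction test of edgeR (quasi-likelihood, Benjamini-Hochberg adjustment): it was 3.34 higher in tumors on the log2 scale, with an SE of 0.66 and an adjusted p of 0.0242. It was the only member called, beside 2.05% of 18419 genes, and the call was lost without any single culture or without VC-8447. Gpnmb was lower in 3 of 3 KO-labelled cultures than in every VC-labelled culture, and its tumor values overlapped between the labels. No sample group had the 4 or more libraries that a test for an outlying sample needs.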

How the results depend on the processing

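No alternative gave a call among the 31 members between KO-labelled and VC-labelled tumors (of all genes, DESeq2 called 66 and edgeR over all 12 libraries 64, against 0 by edgeR over the tumors), and the member median stayed above 0 in those fits (0.15 without both VC-8451 and KO-8459, with 23 of 31 above 0, and 0.13 to 0.54 with 1 tumor left out). The ratio of mean summed member CPM, KO over VC tumors, was 1.16, and 0.929 without both of those tumors and 0.948 to 1.37 with 1 tumor left out. In the cultures 4 members passed, 1 (Gpnmb) when all 12 libraries were fitted together and 3 to 4 with 1 library left out. With a replicate block on the culture numbers 4 members and 7237 genes passed, against 7523 without it, although the numbers did not pair the libraries (correlations of deviations of -0.119, -0.009 and 0.049). The number of members with an interaction was 1, and 0 to 2 with 1 library left out. Tumors against cultures kept 28 to 31 calls in every alternative run. Most members entered these tests through their tumor counts, so nothing is read from that range. In the main fit 37.7% of all genes were called higher under the KO label and 37.9% under the VC label.

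Single genes turned sign in at least 1 alternative, and the cause was not tested. Between KO-labelled and VC-labelled tumors, C1qc became 0.081 and Itgam -0.0084 with limma-voom. Without both VC-8451 and KO-8459, C1qa became -0.21, C1qb -0.097, Cd163 -0.15, Mrc1 -0.21, Gpnmb -0.024 and Cx3cr1 0.0035. With 1 tumor left out, the range was -0.23 to 0.46 for C1qa, -0.24 to 0.54 for C1qb, -0.36 to 0.35 for C1qc, -0.046 to 0.61 for Fcgr1, -0.031 to 0.42 for Tyrobp, -0.25 to 0.48 for Trem2, -0.10 to 0.24 for Msr1 and -0.11 to 0.56 for Cybb, all lowest without VC-8448. It was -0.21 to 1.25 for Mrc1 and -1.01 to 0.13 for Arg1, both lowest without KO-8459, -0.20 to 0.26 for Itgam, -0.42 to 0.18 for Apoe and -0.068 to 0.25 for Pogz. Cd68 in cultures ran from -0.094 to 0.055 with 1 library left out. For VC-labelled tumors over VC-labelled cultures, Gpnmb became 0.047 with upper-quartile scaling, 0.0035 after thinning, 0.30 without both named tumors and -0.89 to 0.37 with 1 library left out.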
